A study of Mus musculus with 10 samples.

Results

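The 7 Hedgehog pathway genes described here were followed in cultures of stem and progenitor cells (NSC/NPCs) grown from the subependymal zone of adult mouse brain: *Gli1*, *Gli2*, *Gli3*, *Ptch1*, *Smo*, *Sufu* and *Hhip*. They were taken by gene symbol, and all 7 were found among the 48795 genes of the deposited count table. A total of 6 passed the filter on low counts and were tested, and *Gli1* did not. RNA was sequenced from WT cells and from cells of *Cdkn1b* mutant mice (p27KO), which were bred on C57BL/6J and give cultures intended to lack the CDK inhibitor p27. Tissue came from mice aged 10 weeks, and the cells of both genotypes were expanded as neurospheres with EGF and FGF. The proliferating neurospheres, labelled as 3 days in vitro, are called PRO. The differentiating stage, DIFF, was 2 + 1 days in vitro (DIV): secondary neurosphere cells were plated on Matrigel for 2 DIV with FGF and then kept for 1 more day without mitogens and with 2% serum. There were 3 WT libraries and 2 p27KO libraries at each stage.

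Hedgehog ligands bind the membrane protein Patched 1, encoded by *Ptch1*, which otherwise keeps the transducer Smoothened (*Smo*) inactive. Active Smoothened at the primary cilium releases the GLI transcription factors from SUFU, so that GLI2 acts mainly as an activator and less GLI3 is cut to its repressor form. *Gli1*, *Ptch1* and *Hhip*, a decoy that binds the ligands, are well known transcriptional targets of the pathway, and in the subependymal zone Hedgehog signalling is known to act on stem cell maintenance and on the identity of ventral progenitors. The counts measure RNA and not the cleavage, location or activity of these proteins.

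The libraries held 19190068 to 25291674 counts, and the first principal component, with 78.4% of the variance, separated the stages. *Cdkn1b* counts were not lost where the label says p27KO. They stood at 90.7 and 114 CPM, counts scaled to a library total of 1e6, in p27KO PRO against 103 to 112 CPM in WT PRO, and at 137 and 140 CPM in p27KO DIFF against 205 to 209 CPM in WT DIFF. Counts per gene do not show which exons were read, and the labels disagree with each other: for the same 4 samples the title and the genotype say p27KO, whereas the free-text description says WT. The samples are called p27KO by title and genotype, and every genotype value below rests on that. *Xist* lay between 2258 and 3595 CPM in the p27KO libraries and between 1.16 and 2.57 CPM in the WT libraries, and the summed level of 4 Y-linked genes was at most 0.585 CPM in p27KO and at least 189 CPM in WT, so genotype and sex cannot be told apart in any comparison between genotypes. The study calls its replicates biological, but no label says which libraries share an animal or a culture, so p-values measure the spread between these libraries. Neural stem and progenitor markers were present at both stages, with a summed level over 8 genes of 7191 to 8974 CPM. This sum covers moves in opposite directions. In the test described below, 3 of the 8 were higher and 2 lower at DIFF in WT, and 4 higher and 2 lower in p27KO. Of all genes tested, 67.4% in WT and 57.7% in p27KO were called in either direction. In WT the mean of *Nes* fell from 1732 to 195 CPM and that of *Slc1a3* rose from 768 to 2386 CPM. Microglial markers summed to at most 0.58 CPM, and 6 endothelial markers to 13.8 to 50.4 CPM at PRO and 5.69 to 14 CPM at DIFF. Of these 6, *Cldn5* and *Cdh5* were at 0 in every library, and the 2 that were tested moved apart, with *Flt1* lower and *Kdr* higher at DIFF in both genotypes.

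On the mouse genome (GRCm38) the members lie apart from each other except for *Gli3* and *Ptch1*, which share a chromosome. *Ptch1* is at chr13:63508328-63573598 on the minus strand, *Gli2* at chr1:118834132-119053619 on the minus strand, *Gli3* at chr13:15463235-15730026 on the plus strand, *Smo* at chr6:29735503-29761365 on the plus strand, *Sufu* at chr19:46396896-46488804 on the plus strand, *Hhip* at chr8:79965851-80058006 on the minus strand and *Gli1* at chr10:127329882-127341974 on the minus strand. Exons of *Gli1* (*Arhgap9*, *Gm47200*), *Gli3* (*Gm6556*) and *Hhip* (*Gm27820*) overlap exons of a gene on the opposite strand, and the sources used here do not state whether the counting used strand. The RefSeq promoter table (GRCm38.p6) held 6 of the 7 members. The 250 bases before the start site listed there are shown for *Ptch1* and *Gli2*, the 2 members whose RNA rose most, and for *Sufu*, which did not pass the test, with each CpG in capitals. For *Ptch1* this start is internal. Its window lies inside the gene interval given above, whose outermost start is at 63573598, and the sequence before that start was not examined. The window of *Gli3* also lies inside its gene interval.
Ptch1 (chr13:63565736-63565985, minus strand): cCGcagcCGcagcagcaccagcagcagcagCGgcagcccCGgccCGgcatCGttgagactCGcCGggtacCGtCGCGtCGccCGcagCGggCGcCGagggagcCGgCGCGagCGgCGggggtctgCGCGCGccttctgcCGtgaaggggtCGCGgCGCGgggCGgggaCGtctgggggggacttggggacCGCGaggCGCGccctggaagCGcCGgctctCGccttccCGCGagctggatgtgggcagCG
Gli2 (chr1:119053620-119053869, minus strand): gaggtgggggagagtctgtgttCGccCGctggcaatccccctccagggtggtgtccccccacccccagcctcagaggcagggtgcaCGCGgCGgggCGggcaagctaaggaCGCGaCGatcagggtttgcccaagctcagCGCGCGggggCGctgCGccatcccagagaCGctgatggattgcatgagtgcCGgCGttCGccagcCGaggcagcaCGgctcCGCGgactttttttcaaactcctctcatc
Sufu (chr19:46396646-46396895, plus strand): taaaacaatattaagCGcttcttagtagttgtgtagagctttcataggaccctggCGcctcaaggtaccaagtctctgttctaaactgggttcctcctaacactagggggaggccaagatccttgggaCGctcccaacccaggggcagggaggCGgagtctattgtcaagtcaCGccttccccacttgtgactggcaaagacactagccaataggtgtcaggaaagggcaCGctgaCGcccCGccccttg
These windows held 41 CpG in *Ptch1*, 22 in *Gli2* and 8 in *Sufu*. The other members had 34 in *Gli3*, 28 in *Hhip* and 15 in *Smo*, and the median over all 32851 promoters of the table was 6. None of the 6 windows held GACCACCCA, a sequence known to be bound by GLI proteins, or its reverse complement TGGGTGGTC, with no mismatch allowed. Of all promoters in the table, 0.225% held it in a window of the same length, so that these letters are rare everywhere, and sites farther away were not searched.

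The first comparison asked how the pathway's RNA changed from PRO to DIFF in WT cells. *Ptch1*, *Gli2* and *Gli3* rose, whereas *Smo*, *Sufu* and *Hhip* did not pass the test. This made 3 of the 6 tested members higher and 0 lower, where 67.4% of all 12859 genes tested were called in either direction, 33.5% higher and 33.9% lower. In p27KO cells *Ptch1*, *Gli2*, *Gli3* and *Smo* rose and none fell, so 4 of 6 were higher, where 57.7% of all genes were called, 27.5% higher and 30.2% lower. The median log2 fold change of the 6 was 0.36 in WT and 0.56 in p27KO, beside 0.00 and -0.03 over all genes tested. Tests were made with edgeR's quasi-likelihood test and Benjamini-Hochberg adjustment across the whole filtered table, and an adjusted p under 0.05 was called. The stage changes of WT and p27KO do not share libraries. The spread was estimated from all 10 libraries together, so the p-values of the genotypes are not independent.

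*Ptch1*, the receptor, had more counts at DIFF than any other member. Its WT PRO libraries stood at 132, 172 and 175 CPM and its WT DIFF libraries at 609, 498 and 546 CPM. In p27KO it went from 157 and 144 CPM to 429 and 473 CPM. Every DIFF library lay above every PRO library by a wide gap, and within a stage the libraries of a genotype were close together. The fitted rise was 3.42-fold in WT (log2 fold change 1.78 ± 0.12 SE, adjusted p = 1.09e-06 by edgeR's quasi-likelihood test) and 2.95-fold in p27KO (1.56 ± 0.14, adjusted p = 1.92e-05).

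*Gli2*, which encodes the main activator of the pathway, was a low-abundance gene at PRO, with 12.9, 8.82 and 6.59 CPM in WT and 7.64 and 11.2 CPM in p27KO. At DIFF it reached 23.2, 24.6 and 21 CPM in WT. Both p27KO DIFF libraries stood at 29.8 CPM, above all 3 WT DIFF libraries. The PRO libraries of WT were spread widely, and all DIFF libraries lay above them. The rise was 2.42-fold in WT (1.27 ± 0.23, adjusted p = 0.000827, edgeR) and 3.11-fold in p27KO (1.64 ± 0.28, adjusted p = 0.000906).

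*Gli3*, the source of the main GLI repressor, rose by less. It went from 44.7, 57.2 and 54.5 CPM to 63.4, 87.4 and 69.8 CPM in WT. In p27KO it went from 48.6 and 53.3 CPM to 91.2 and 86.2 CPM. The stages did not overlap in either genotype, but in WT the highest PRO library and the lowest DIFF library were close. The fitted changes were 1.40-fold (0.49 ± 0.14, adjusted p = 0.0108, edgeR) and 1.71-fold (0.78 ± 0.17, adjusted p = 0.00345).

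*Smo*, the signal transducer, changed little. WT PRO libraries had 114, 127 and 103 CPM and WT DIFF libraries 138, 138 and 129 CPM. The p27KO libraries had 92.8 and 111 CPM at PRO and 130 and 134 CPM at DIFF. The stages did not overlap in either genotype, but the WT libraries nearly touched. The WT change of 1.17-fold did not pass the threshold (0.23 ± 0.10, adjusted p = 0.0668, edgeR), and the p27KO change of 1.27-fold did (0.34 ± 0.12, adjusted p = 0.0360). With the replicate number as a block, which in WT pairs the libraries of the stages, the WT rise passed as well (0.23 ± 0.08, adjusted p = 0.0311). The p27KO call was lost without PRO library 1 (0.20, adjusted p = 0.218), DIFF library 1 (0.36, 0.0976) or DIFF library 2 (0.33, 0.126), and of these only the loss of PRO library 1 made the change much smaller. The WT call was gained without WT PRO library 2 (0.32, adjusted p = 0.0306), and without p27KO PRO library 1 or 2 (0.0376 and 0.0375), where the change stayed at 0.23.

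**Figure D1:**
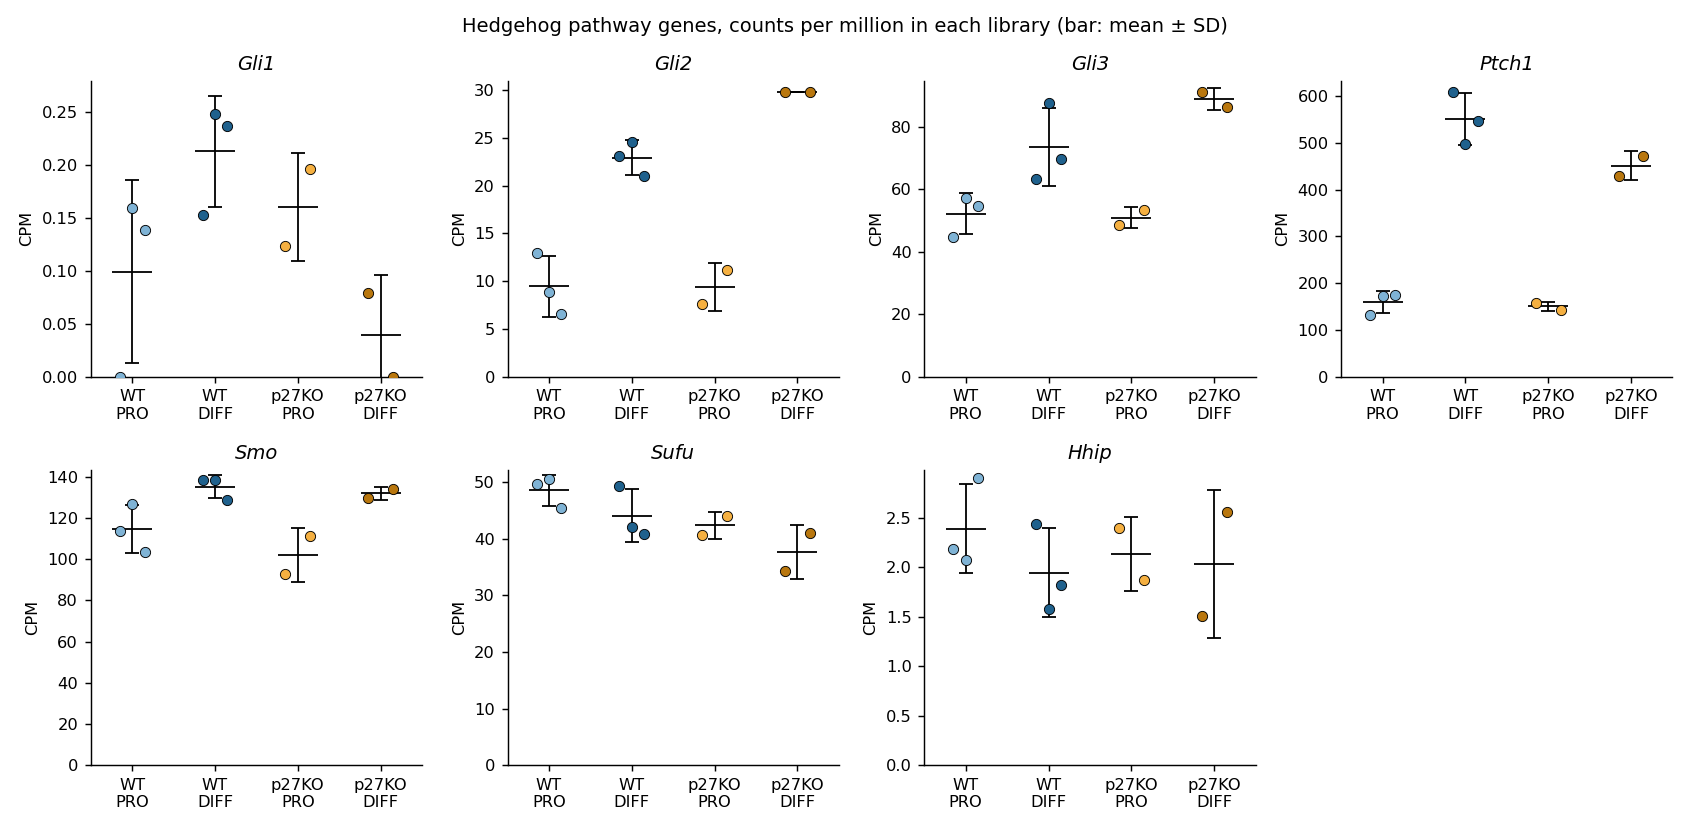
CPM (vertical axis, from 0) of the 7 members in each of the 10 libraries, by group (horizontal axis). Points are libraries and bars the mean ± SD of 3 WT or 2 p27KO libraries. *Ptch1*, *Gli2*, *Gli3* and, by a narrow gap, *Smo* lie higher in every DIFF library than in any PRO library. The share of all genes without overlap between the stages was not computed. By the test, 67.4% of all genes were called in WT and 57.7% in p27KO. *Sufu* and *Hhip* overlap between the stages, and *Gli1* stays at or under 0.249 CPM.

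*Sufu*, which holds GLI proteins in the cytoplasm, had 49.7, 50.5 and 45.5 CPM at PRO and 49.4, 42.0 and 40.8 CPM at DIFF in WT. In p27KO the values were 40.7 and 44.1 CPM at PRO and 34.3 and 41 CPM at DIFF. The stages overlapped in both genotypes. The log2 fold changes of -0.15 (95% interval -0.38 to 0.08) and -0.20 (-0.48 to 0.08) did not pass the test (adjusted p = 0.215 and 0.203, edgeR).

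*Hhip* was close to the limit of the filter. It had 2.19, 2.07 and 2.90 CPM at PRO and 2.44, 1.57 and 1.82 CPM at DIFF in WT, from 38 to 63 counts a library. In p27KO it had 2.40 and 1.87 CPM at PRO and 1.51 and 2.56 CPM at DIFF. Libraries of both stages were interleaved, and the intervals of the log2 fold change, -0.92 to 0.30 in WT and -0.85 to 0.64 in p27KO, leave room for changes in either direction at this depth (adjusted p = 0.328 and 0.811, edgeR).

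*Gli1*, which is often read as a marker of active Hedgehog signalling, was barely detected. WT libraries held 0, 4 and 3 counts at PRO and 3, 6 and 6 at DIFF, and p27KO libraries 3 and 4 at PRO and 2 and 0 at DIFF. A count of 0 allows up to 3 counts, which is 0.119 to 0.156 CPM in these libraries, so most values are near that floor. Per total counts, the summed DIFF level over the summed PRO level was 2.05 in WT (15 against 7 counts, exact 95% interval 0.785 to 5.93) and 0.268 in p27KO (2 against 7 counts, 0.0272 to 1.41). Both intervals, which cover counting error only, include 1, so no stage change of *Gli1* was detectable at this depth.

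**Figure D2:**
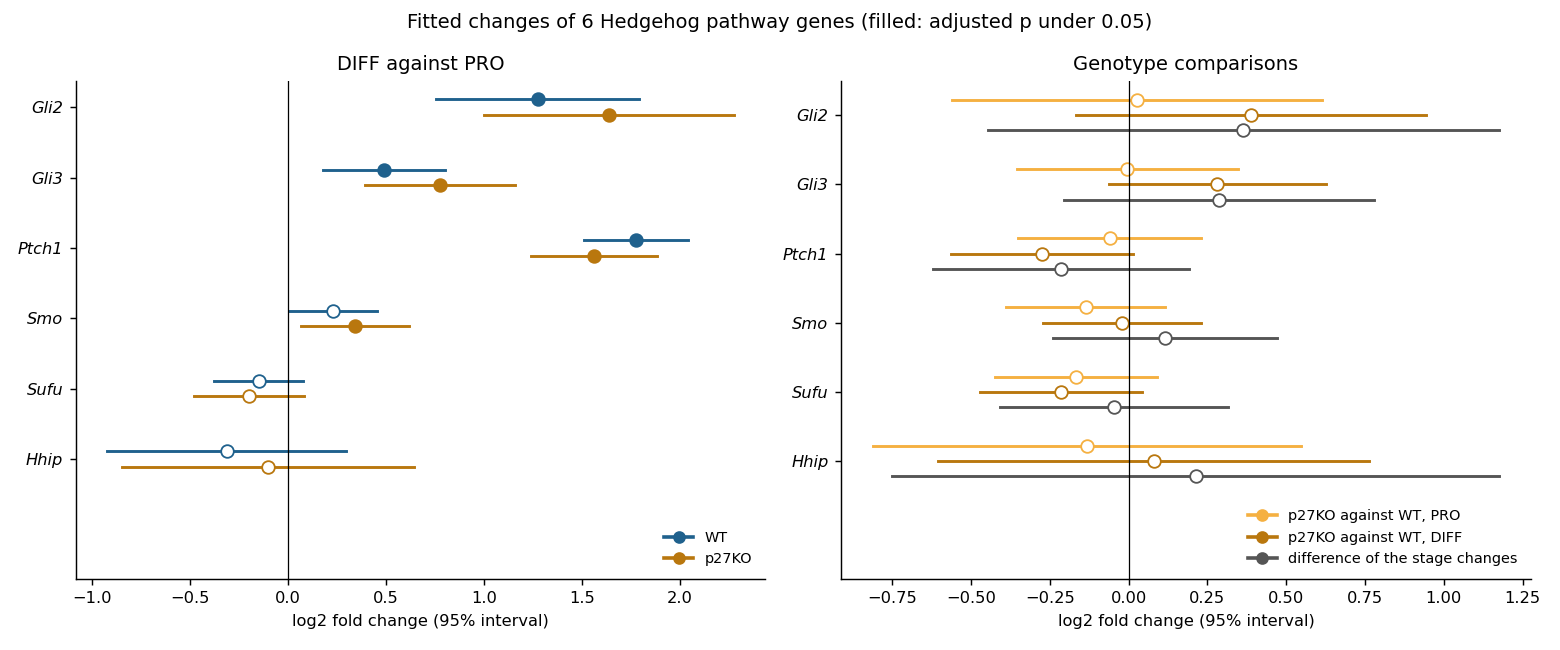
Fitted log2 fold change (horizontal axis) with its 95% interval for the 6 tested members. Left, DIFF against PRO in WT and p27KO, and right, p27KO against WT at each stage and the difference of the 2 stage changes. Filled points passed an adjusted p of 0.05, and every genotype interval on the right crosses 0.

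The second question was whether the pathway differed between the genotypes. The stage change of each of the 6 members had the same sign in WT and p27KO, although those of *Sufu* and *Hhip* were small beside their errors. The test of the difference of the changes called 0 of 6 members, and 0.389% of all genes. Its values ran from -0.21 ± 0.18 for *Ptch1* (95% interval -0.62 to 0.19) to 0.36 ± 0.36 for *Gli2* (-0.45 to 1.17), with an adjusted p of 0.9997 for all 6 (edgeR). The intervals for *Gli3* (0.29, -0.21 to 0.78), *Hhip* (0.21, -0.75 to 1.18), *Smo* (0.11, -0.24 to 0.47) and *Sufu* (-0.05, -0.41 to 0.31) also held 0. No member had an unadjusted p under 0.05 here (0 of 6), and DESeq2 called 0 as well, so a difference was not detected, and the intervals are wide enough to hold differences the size of several stage changes given above.

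At PRO, p27KO against WT called 0 of 6 members, with 0 at an unadjusted p under 0.05 and 0 by DESeq2, where 0.0156% of all genes were called. *Gli2* and *Gli3* were nearly level, at 0.03 ± 0.26 and -0.0049 ± 0.16, and *Sufu* differed most, at -0.17 ± 0.11 (95% interval -0.42 to 0.09). At DIFF, 0 of 6 were called too, again with 0 at an unadjusted p under 0.05 and 0 by DESeq2, where 2.04% of all genes were. *Ptch1* came nearest. Its p27KO DIFF libraries, at 429 and 473 CPM, both lay below the lowest WT DIFF library at 498 CPM, and the fitted difference was -0.27 ± 0.13 (95% interval -0.56 to 0.01, adjusted p = 0.361, edgeR). *Gli2* (0.39, -0.17 to 0.94) and *Gli3* (0.28, -0.06 to 0.63) lay on the other side of 0, and *Smo* was level at -0.02 (-0.27 to 0.23).

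Levels were then compared between the members per length, as CPM per kb of annotated exon. At PRO the order in both genotypes was *Smo*, *Ptch1*, *Sufu*, *Gli3*, *Gli2*, *Hhip* and *Gli1*, and at DIFF it was *Ptch1*, *Smo*, *Gli3*, *Sufu*, *Gli2*, *Hhip* and *Gli1*. In WT the means ran from 20.4 ± 2.08 CPM per kb for *Smo* (SD, n = 3) to 0.0199 ± 0.0173 for *Gli1* at PRO, and from 38.8 ± 3.89 for *Ptch1* to 0.0426 ± 0.0105 for *Gli1* at DIFF. The ranges of *Sufu* and *Gli3* overlapped at PRO in both genotypes (5.91 to 6.57 and 4.66 to 5.97 in WT, 5.29 to 5.73 and 5.07 to 5.55 in p27KO), so their order there is not resolved. All other neighbours were separated in every library of their group.

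The receptor and the transducer thus changed places. *Ptch1* per *Smo*, both per length, was 0.46 to 0.672 in the WT PRO libraries and 1.43 to 1.74 in the WT DIFF libraries. In p27KO it was 0.511 and 0.67 at PRO and 1.31 and 1.40 at DIFF. The ratio was below 1 in all 5 PRO libraries and above 1 in all 5 DIFF libraries, but its size depends on the length used, and with the mean length of coding transcripts in place of all exons *Ptch1* was above *Smo* in all 4 groups.

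Within the GLI family, *Gli3* made up most of the RNA. Of the summed level per length of *Gli1*, *Gli2* and *Gli3*, *Gli3* held 79.5% ± 7.31 (SD, n = 3) at WT PRO and 69.2% ± 2.85 at WT DIFF, and 79.3% ± 3.34 (n = 2) at p27KO PRO and 68% ± 0.797 at p27KO DIFF. *Gli2* took nearly all the rest, 20.3% and 30.4% in WT and 20.2% and 31.9% in p27KO, and *Gli1* held at most 0.546% in any library. In WT the PRO library with the least *Gli3* (71.2%) fell inside the DIFF range of 66.0% to 71.5%, but the share fell within each of the 3 same-numbered pairs, from 71.2% to 66.0%, from 81.9% to 71.5% and from 85.2% to 70.1%, and the p27KO libraries did not overlap (76.9% and 81.7% against 67.5% and 68.6%). The summed level rose from 6.83 ± 0.396 to 11 ± 1.49 CPM per kb in WT and from 6.71 ± 0.718 to 13.6 ± 0.376 in p27KO.

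**Figure D3:**
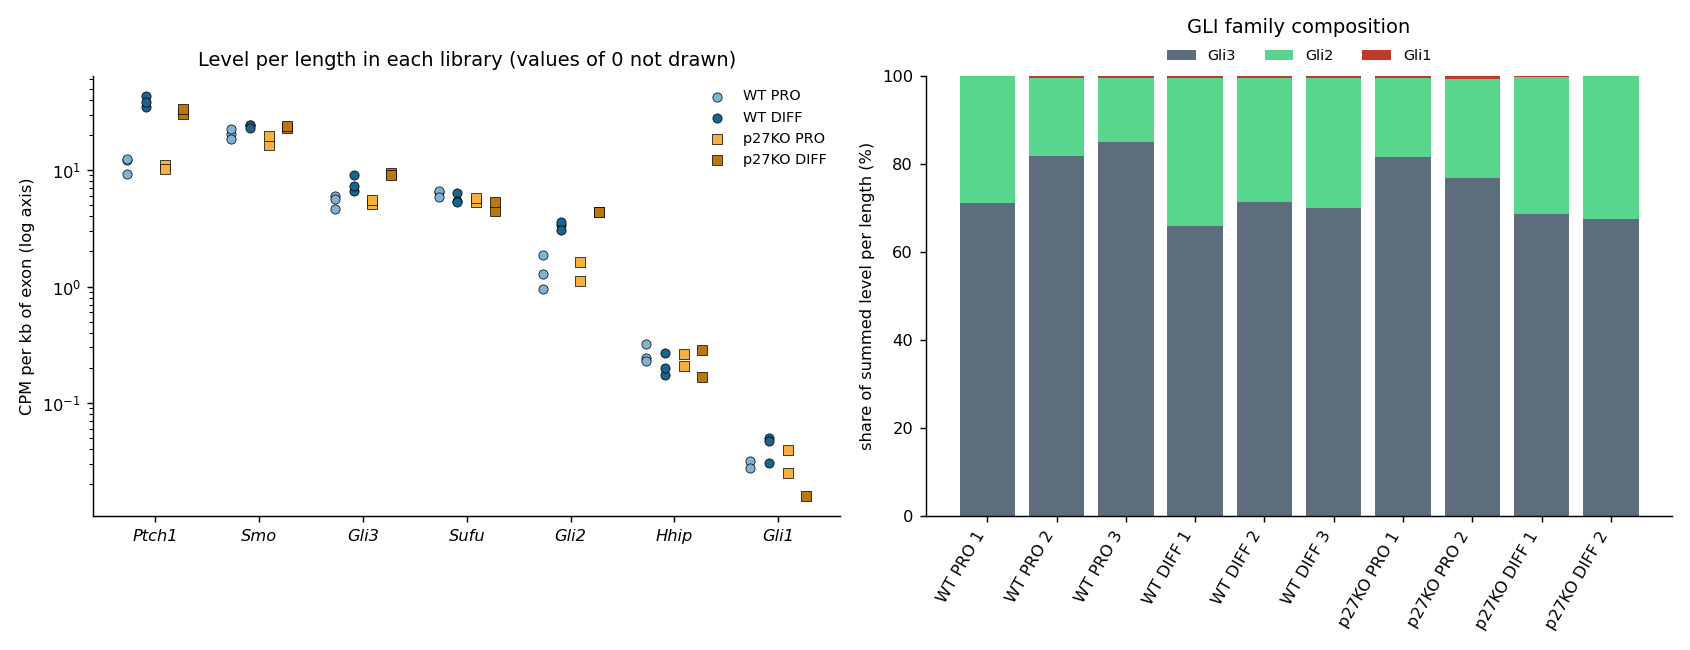
Left, CPM per kb of exon (log axis) of the members in each library, with values of 0 not drawn. Right, share (%) of *Gli1*, *Gli2* and *Gli3* in their summed level per length, with bars for the 10 libraries. *Ptch1* passes *Smo* between PRO and DIFF, and *Gli3* holds 66.0% to 85.2% of the GLI family.

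Pattern likeness was measured as the root-mean-square difference of log2 CPM, centred on each gene's mean, over the 10 libraries. For *Ptch1* the closest of all genes tested were *Itpk1* (0.0642) and *Bcas3* (0.079), beside a deviation of 0.861 of *Ptch1* from its own mean. For *Gli2* they were *Gm43660* (0.165) and *Dzip1* (0.181), and for *Gli3* *Pcdh7* (0.0822) and *Cd2ap* (0.0911). *Smo* was closest to *Ndst2* (0.0624) and *Fbxl18* (0.0629), *Sufu* to *Tor2a* (0.0501) and *Tada3* (0.0501), and *Hhip* to *Gm17638* (0.173) and *Spryd7* (0.176). Of the members themselves, *Hhip* and *Sufu* were the closest pair (0.247), next to *Gli3* and *Smo* (0.248), and *Ptch1* and *Hhip* the most distant (0.989). The distance between *Hhip* and *Sufu* lies between their own deviations from the mean (0.276 and 0.16), as these genes hardly moved. That between *Gli3* and *Smo* also lies between their own deviations (0.35 and 0.178).

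The other genes of the pathway were taken from lists of 62 genes, of which 49 were tested. In WT 21 were higher and 13 lower at DIFF, where 67.4% of all genes tested were called in either direction, 33.5% higher and 33.9% lower. In p27KO 15 were higher and 10 lower, where 57.7% of all genes were called, 27.5% higher and 30.2% lower. Of these genes, *Boc*, *Gas1*, *Scube3*, *Evc2*, *Gpr161*, *Ift88*, *Prkaca*, *Prkacb*, *Gsk3a*, *Spop*, *Stk36*, *Mycn*, *Bcl2*, *Sfrp1* and *Hes1* are named after their values were seen, and the others by a rule on mean level or role.

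Ligands were scarce apart from *Dhh*, which encodes Desert hedgehog. *Shh* had at most 0.198 CPM and *Ihh* at most 0.393 CPM in any library. *Dhh* had 11.6, 51.6 and 17.2 CPM at WT PRO and 0.712, 1.28 and 0.633 CPM at WT DIFF, and 14.8 and 17.2 CPM against 0.674 and 0.45 CPM in p27KO. WT PRO library 2 stood far above the others, and all DIFF libraries lay below all PRO libraries. The log2 ratio of the mean CPM was -4.93 in WT and -4.83 in p27KO. *Dhh* was not tested with the filter used here. A filter that asks for 1 CPM in 4 libraries keeps it through the PRO libraries where it is high, so a test there adds no support for the fall. It shares exon sequence with *Rhebl1* on the same strand, so the estimated counts of the pair depend on how reads were divided.

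Of 4 ligand release genes tested, *Disp2*, a Dispatched homologue, rose 4.55-fold in WT (2.19 ± 0.33, adjusted p = 0.000272, edgeR) and 2.74-fold in p27KO (1.45 ± 0.40, adjusted p = 0.0112), a call lost without p27KO PRO library 1 (adjusted p = 0.0818) or DIFF library 2 (0.0534). *Scube3* rose in WT (1.54 ± 0.51, adjusted p = 0.0231, edgeR), a call lost without WT PRO library 2 (0.0746), PRO library 3 (0.0786) or DIFF library 1 (0.0785). *Disp1*, the Dispatched gene known to release lipid-modified ligands, had log2 fold changes of 0.03 ± 0.14 and -0.18 ± 0.17.

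Among the receptors and coreceptors, *Boc* changed most. This ligand-binding coreceptor had 8.96, 8.94 and 6.55 CPM at WT PRO and 59.6, 76.8 and 64.9 CPM at WT DIFF, and went from 6.32 and 8.61 to 64.4 and 68 CPM in p27KO. The groups were far apart, with rises of 8.19-fold (3.03 ± 0.17, adjusted p = 4.22e-07, edgeR) and 8.72-fold (3.12 ± 0.21, adjusted p = 3.76e-06). *Lrp2*, a large endocytic receptor that binds Sonic hedgehog, rose 3.14-fold and 4.92-fold (adjusted p = 0.00033 and 0.000248, edgeR), while *Gas1*, another coreceptor, fell in WT by 0.83 ± 0.17 on the log2 scale (adjusted p = 0.00151, edgeR) and had a log2 fold change of -0.45 ± 0.20 in p27KO (adjusted p = 0.0828). The p27KO fall of *Gas1* passed with the replicate block nested in genotype (adjusted p = 0.0209), with only the groups compared (0.0401) and without WT PRO library 2 (0.0398, edgeR). *Cdon*, the paralogue of *Boc*, had log2 fold changes of -1.38 ± 0.64 and -1.38 ± 0.79 (adjusted p = 0.0892 and 0.165, edgeR), and with the replicate block the WT fall passed (-1.57 ± 0.43, adjusted p = 0.0193), as it did without WT DIFF library 2 (-2.31, adjusted p = 0.0114). In p27KO *Cdon* passed with the nested block (-1.44, adjusted p = 0.0437, edgeR) and with only the groups compared (-1.35, adjusted p = 0.0340). The nested block treats same-numbered p27KO libraries as pairs, which the data do not settle.

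**Figure D4:**
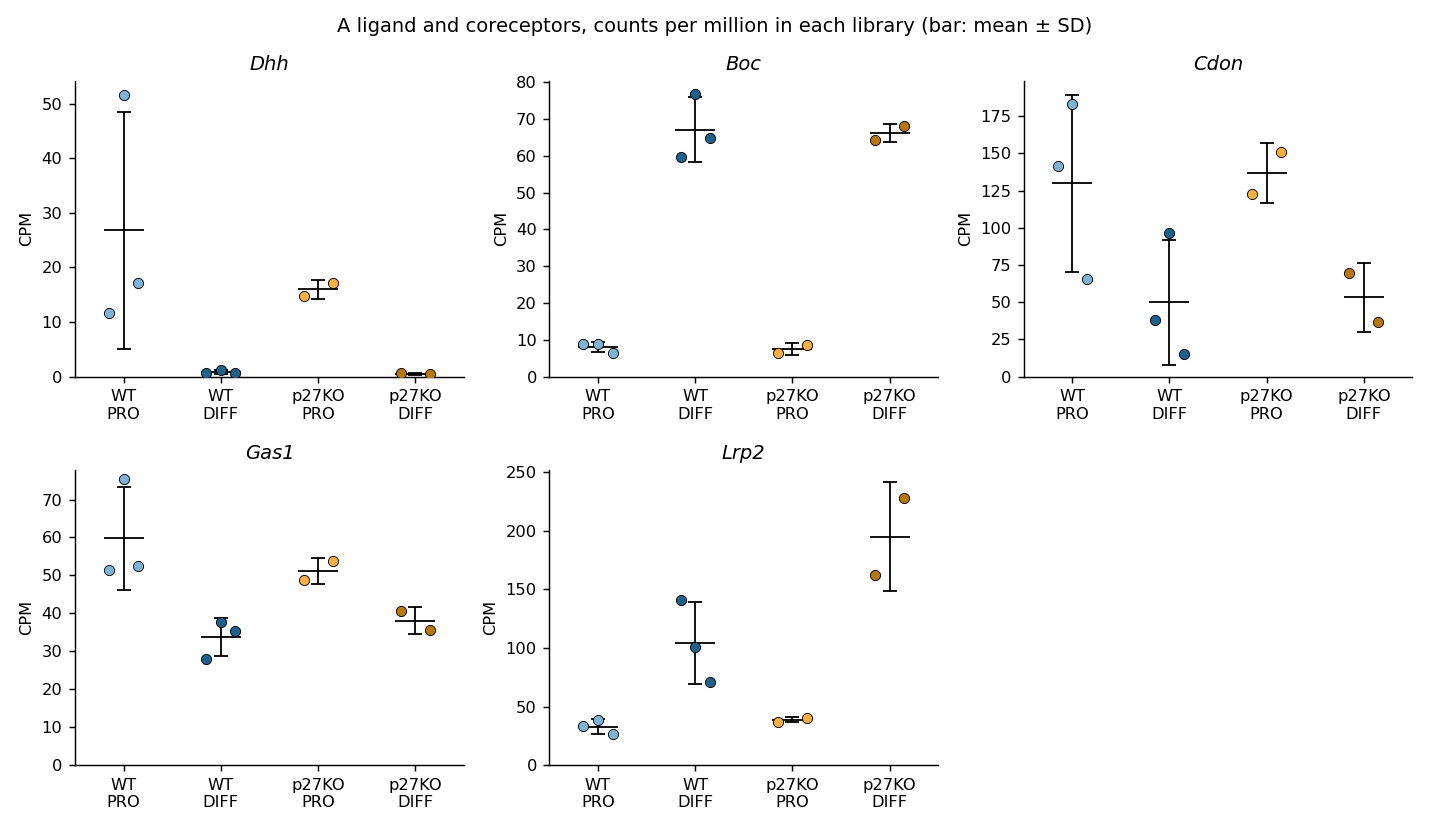
CPM (vertical axis, from 0) of *Dhh*, *Boc*, *Cdon*, *Gas1* and *Lrp2* in each library, by group (horizontal axis). Points are libraries and bars the mean ± SD of 3 WT or 2 p27KO libraries. *Boc* and *Lrp2* are higher and *Dhh* lower in every DIFF library than in any PRO library, and *Cdon* overlaps between the stages in WT.

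Among 13 Smo trafficking and ciliary regulators, 5 were higher and 5 lower in WT, and 3 higher and 4 lower in p27KO. The shares of all genes called were 67.4% and 57.7%. *Kif3a*, a motor subunit of ciliary transport, rose 1.75-fold and 1.70-fold (adjusted p = 5.40e-06 and 5.38e-05, edgeR), and *Ift88*, a transport particle subunit, rose 1.58-fold and 1.6-fold. *Gpr161*, a ciliary receptor that restrains the pathway, rose 1.6-fold and 1.58-fold. *Evc2*, which works with Smoothened at the base of the cilium, fell by 0.84 and 0.98 on the log2 scale (adjusted p = 3.74e-05 and 9.57e-05, edgeR). *Mgrn1*, a ubiquitin ligase acting on Smoothened, rose in WT (0.32 ± 0.08, adjusted p = 0.00572, edgeR) and had 0.16 ± 0.10 in p27KO (adjusted p = 0.185).

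Of 17 kinases and ubiquitin ligases that act on GLI proteins, 8 were higher and 2 lower in WT, and 6 higher and 2 lower in p27KO. Over all genes, 33.5% were higher and 33.9% lower in WT, and 27.5% higher and 30.2% lower in p27KO. Kinases that prime GLI proteins for cleavage moved apart. *Prkaca*, a catalytic subunit of protein kinase A, and *Gsk3a* were the 2 that fell in each genotype, by 0.56 and 0.50 in WT and by 0.74 and 0.54 in p27KO on the log2 scale. *Prkacb*, another catalytic subunit, lay higher in every DIFF library than in any PRO library of its genotype. Its means went from 135 to 185 CPM in WT and from 125 to 180 CPM in p27KO. The means of *Prkaca* at DIFF were 107 and 96.6 CPM, lower than those of *Prkacb*. Per kb of exon the order was reversed, with *Prkaca* above *Prkacb* at DIFF in both genotypes. The p27KO call of *Gsk3a* was lost without PRO library 2 (-0.32, adjusted p = 0.0897, edgeR) or DIFF library 1 (-0.49, adjusted p = 0.0705). *Gsk3b* rose 1.44-fold and 1.56-fold (adjusted p = 0.000205 and 0.000337, edgeR), and *Prkar1a*, the regulatory subunit, had -0.12 ± 0.09 and -0.09 ± 0.11. *Spop*, an adaptor that marks GLI2 and GLI3 for degradation, rose 1.58-fold and 1.92-fold, and *Stk36*, the homologue of the fly kinase Fused, 3.12-fold and 2.70-fold.

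Of 10 tested genes known as GLI targets elsewhere, 4 were higher and 5 lower in WT, and 3 higher and 4 lower in p27KO. Their medians were -0.44 and -0.21 on the log2 scale. Over all genes, 67.4% were called in WT and 57.7% in p27KO. *Mycn* rose 4.27-fold and 6.51-fold (adjusted p = 1.92e-05 and 3.24e-05, edgeR), *Bcl2* 2.33-fold and 3.10-fold, and *Sfrp1*, a secreted Wnt inhibitor, 2.46-fold and 4.78-fold. The D-type cyclins, which also answer to mitogens, fell. *Ccnd1* fell by 5.89 and 5.97 and *Ccnd2* fell by 1.21 and 0.85 on the log2 scale (adjusted p = 3.94e-08 and 5.05e-07 for *Ccnd1*, edgeR). *Hes1*, a target shared with Notch signalling, fell by 2.02 and 1.71. *Foxm1*, a driver of mitotic gene expression, was the 1 pathway gene called between the genotypes. At DIFF this was 1 of the 49 other pathway genes tested, where 2.04% of all genes were called. *Foxm1* fell by 3.24 ± 0.14 in WT and by 1.93 ± 0.16 in p27KO, and at DIFF it had 38.3 and 34 CPM in p27KO against 15.4, 12.4 and 15.9 CPM in WT (1.33 ± 0.15, adjusted p = 0.00154, edgeR). Its exons overlap those of *Tex52* and *Gm44596* on the same strand.

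**Figure D5:**
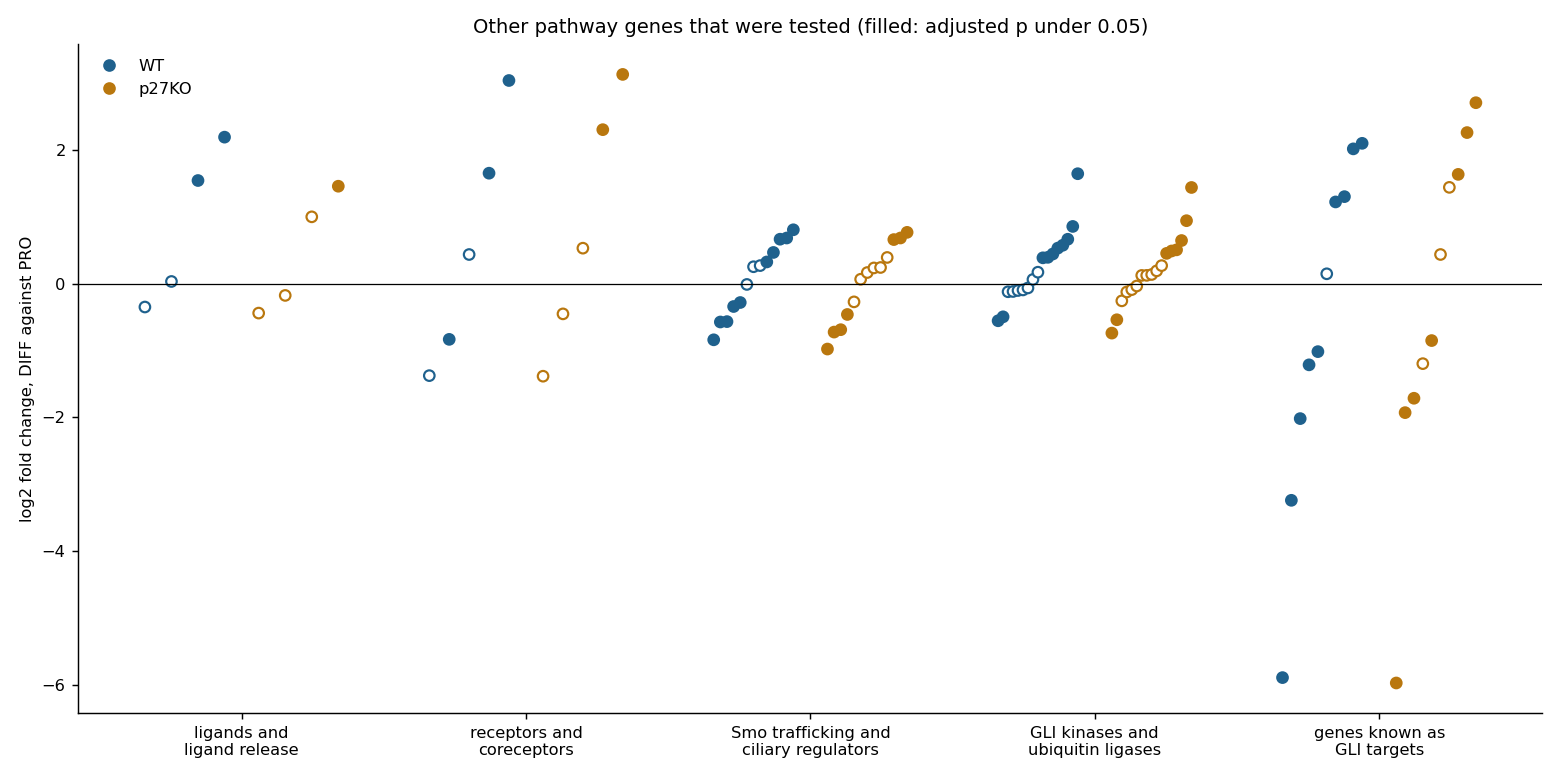
Log2 fold change from PRO to DIFF (vertical axis) of the 49 other pathway genes tested, by list (horizontal axis), in WT and p27KO. Filled points passed an adjusted p of 0.05. Each list holds genes on both sides of 0, and *Ccnd1*, at -5.89 and -5.97, lies lowest.

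Markers of other cell types moved with the stage. Astrocytic markers summed to 764 to 942 CPM at WT PRO and 2268 to 2642 CPM at WT DIFF, and to 853 to 1097 and 2661 to 2713 CPM in p27KO. In each genotype 4 of the 6 tested were higher, where 33.5% of all genes were higher in WT and 27.5% in p27KO. Ependymal markers summed to 15.4 to 20.9 CPM at PRO and 91.9 to 111 CPM at DIFF over both genotypes, with *Foxj1* the 1 tested and higher in both. Oligodendroglial markers summed to 1153 to 1545 CPM at WT PRO and 694 to 843 CPM at WT DIFF, and to 1191 to 1479 and 588 to 639 CPM in p27KO. The part of a change in cell composition in the rise of *Ptch1*, *Gli2*, *Gli3* and *Boc* was not tested, and in these bulk libraries more cells that express a gene and more RNA per cell cannot be told apart.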

How the data were processed

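RNA of 10 culture samples was amplified from polyA RNA as cDNA and sequenced. The authors used STAR against the mouse transcriptome of Ensembl and RSEM to make estimated counts per gene, and the submitters' processing notes list builds GRCm38 and mm10. The deposited values are these expected counts, whole numbers without normalization. Symbols were matched for 48349 of 48795 identifiers from GENCODE (GRCm38), and 19955 genes had 0 counts throughout. Here, a gene was dropped if 4 or more of the 10 libraries had under 1 CPM, which left 12859. edgeR 4.0.16 (R 4.3.3, limma 3.58.1) fitted the 4 groups with TMM scaling and a robust quasi-likelihood model, tested on simulated counts first. DESeq2 1.42.0, other filters, thinning, left-out libraries and replicate blocks were alternatives. CPM is per library total without TMM. Level per length used the union of exons. At 19190068 to 25291674 counts, the spread between replicates sets the precision except for genes with few counts.

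Genes named besides the members were the 2 with the highest mean CPM in each list, *Shh*, *Ihh*, *Dhh*, any called between genotypes, and for each tested member the 2 genes of most similar pattern. Some planned results are not reported here. The members and lists were chosen with earlier results of these data known. Same-numbered WT libraries deviated together over all genes (correlations 0.248, 0.301 and 0.395, against -0.221 to -0.0874 for different numbers), so the numbers pair the WT libraries. With 2 p27KO libraries a group, the correlations are a single value that differs only in sign (-0.138 for same numbers, 0.138 for different numbers). This cannot tell whether the numbers pair the p27KO libraries.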

Additional observations from a re-analysis of the deposited data

Results flagged for a closer look

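The stage change of *Foxm1* differed between the genotypes by the test of the difference itself: 1.31 ± 0.21 on the log2 scale, p27KO minus WT (adjusted p = 0.0340, edgeR). That test called 1 of the 49 other pathway genes and 0.389% of all genes. *Foxm1* fell in both genotypes, and its PRO libraries overlapped, at 114 and 156 CPM in p27KO and 134 to 139 CPM in WT. The sign held in all 18 alternatives, from 1.09 to 1.57, but the call was lost in 10 of them, including the replicate block (adjusted p = 0.0722) and every fit without 1 WT PRO library, WT DIFF library 3 or 1 p27KO library. The size stayed between 1.30 and 1.37 without any 1 WT PRO library or WT DIFF library 3. The difference at DIFF, 1.33, was called in all 18 alternatives, from 1.23 to 1.42. Genotype and sex cannot be told apart here.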

How the results depend on the processing

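The counts of called members stayed at 3 or 4 of 6 for each stage change and at 0 for each genotype comparison under every alternative run. The calls of *Ptch1*, *Gli2* and *Gli3* held in both genotypes in all 19 alternatives, and *Smo* was the 1 member whose call changed, also lost in p27KO with a filter of 1 CPM in 4 libraries (adjusted p = 0.0524) and with no filter (0.115). With the mean coding transcript length, the order of levels per length held in 2 of 4 groups. Without division by length *Gli3* held 75.9%, 84.3% and 74.8% of the GLI sum at WT DIFF, p27KO PRO and p27KO DIFF. Over all pairs of a result and an alternative, 1636 of 1742 stayed the same. For a tested gene this meant the same direction and side of the threshold. Counts had to stay within a set factor, and shares and *Dhh* ratios within the SD between replicates. Of the rest, 25 lost and 14 gained a call, and 29 changed sign, all of them values that were not called. The other 38, which were counts of genes, orders or shares, moved past these margins.

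The replicate block with the number shared by both genotypes changed, among the members, only the *Smo* call in WT (0.23, adjusted p = 0.0311), and turned *Gli2* at PRO between genotypes to -0.10. Crossing the p27KO numbers, an alternative added after seeing the data, gave 4 called members in each stage change, 0 in each genotype comparison, and 524 genes at DIFF and 1 at PRO between genotypes. Other changes of sign were *Gli2* at PRO (-0.00564, library totals without TMM, also added), *Hhip* at DIFF between genotypes (-0.0427, thinned counts) and *Disp1* in WT (-0.0081 and -0.0488, filter of 1 CPM in 4 libraries and no filter). Leaving out 1 library each gave ranges that crossed 0: *Disp1* in WT -0.0383 to 0.10, and in p27KO *Disp1* -0.42 to 0.11, *Hhip* -0.52 to 0.23 and *Prkar1a* -0.24 to 0.0809. For the difference of the stage changes they were *Smo* -0.0294 to 0.27, *Sufu* -0.17 to 0.067 and *Hhip* -0.20 to 0.54. Between genotypes at PRO they were *Gli2* -0.29 to 0.32, *Gli3* -0.10 to 0.0799, *Ptch1* -0.18 to 0.0135, *Smo* -0.30 to 0.0075 and *Hhip* -0.30 to 0.0337, and at DIFF *Smo* -0.066 to 0.0123 and *Hhip* -0.34 to 0.41.

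Over all genes, the difference of the stage changes had 50 calls, 157 with DESeq2, 79 with no filter, 29 with the block nested in genotype and 0 to 89 with 1 library left out. Between genotypes at PRO there were 2, 40 with DESeq2, 9 with the looser filter, 14 with none, 1 with only the groups compared, the block or library totals, and 1 to 4 with 1 library left out. At DIFF there were 262, 631 with DESeq2, 39 with only the groups compared and 99 to 282 with 1 library left out. The cause was not tested. The difference of the stage changes uses all libraries, so a fit of only the groups compared was not run for it, and the nested block was not run between genotypes. With 2 or 3 libraries a group, *Hhip* and *Gli1* are limited by counts.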
